A study of Mus musculus with 20 samples.

Results

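Genes of glucose uptake, glucose breakdown and the hypoxia response, 7 in all, were followed in LβT2 cells, a mouse line of pituitary gonadotropes, the cells that make luteinizing and follicle-stimulating hormone. The genes are Slc2a1, Egln1, Ndrg1, Bnip3, Aldoa, Pgk1 and Ldha. Every probe set that the platform annotation gives to one of these 7 genes was taken, which makes 9 probe sets (Ndrg1 and Aldoa have 2 each) of 8491 tested. All 9 passed the filter on low signal, and they stand for 7 of 6216 genes with a tested probe set. The cells were grown on microcarrier beads, kept without serum, and perifused in columns. Over 4 h they received gonadotropin-releasing hormone (GnRH), a hypothalamic peptide and the main stimulus of gonadotropes. At 100 nM it came in 1, 2, 4 or 8 pulses, each lasting 2 min, or without a break (tonic), and at 10 nM in 1, 4 or 8 pulses or tonic. Unstimulated cells were perifused with medium alone. RNA of each of these 10 groups was measured on 2 Affymetrix arrays, and the unit of every level below is the array's signal, a brightness on a linear scale.

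Each title also holds a letter, which is A or D for unstimulated cells and 100 nM, and B or C for 10 nM. Groups were taken from the titles. For 8 samples, the 6 D arrays and 2 C arrays, the sample characteristics name another pulse number than the title does. With groups from the characteristics, 0 of the 9 probe sets passed the threshold in any comparison named below. The share of all probe sets called in that fit is not given here, so the 0 cannot be read as particular to these genes. The 12 samples whose labels agree leave 1 array, of letter A, in each 100 nM group and in unstimulated cells. A fit to them borrows its spread from the 4-pulse and 8-pulse groups at 10 nM, and its calls say nothing of stability. The number of pulses also goes with the time since the last pulse, and the labels do not say whether the 2 arrays of a group came from separate cultures, so the p-values speak of the spread among these samples alone, which may be technical.

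The 2% trimmed mean signal was 2501.25 to 2501.75 on every array, and median signals ran from 709 to 838. Of 8 gonadotrope markers on the array, Cga, Lhb, Nr5a1, Pitx1, Chga and Scg2 stood above the filter of 427 on all 20 arrays, Gnrhr on 19 and Fshb on 1. Summed signals of 17 markers of other cell types ran from 15299 to 22284 and were highest in tonic 100 nM, at 19665 and 22284, against 17637 and 17677 in unstimulated cells. Ptprc, Cd3e and Lyz2 (leukocytes), Kdr and Tek (endothelium), Col3a1 and Lum (fibroblasts) and Tshb and Pomc (other pituitary cells) were above the filter on no array. In the same cell types Gh (median signal 2693), Col1a1 (1719), Col1a2 (3729), Pecam1 (775), Cdh5 (5849) and the erythroid Hba-a1 (748) were above it on all 20 arrays, Cd68 on 17 and Prl on 4. The part of other cells in the results was not tested, and in bulk RNA fewer cells of a type and less RNA per cell cannot be told apart. The ratio of the 3' to the 5' Gapdh probe set, a sign of RNA quality, was between 0.900 and 1.08 on 17 arrays. It was 1.69 on 8 pulses 100 nM array A, and 1.21 (A) and 1.23 (D) on the 4 pulses 100 nM arrays.

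Cells sense oxygen through prolyl hydroxylases. When oxygen is present, these enzymes mark the alpha subunits of the hypoxia-inducible factors (HIF) for destruction. When oxygen is short the subunits persist, pair with Arnt and bind gene control regions at a short core sequence. Egln1 (also called PHD2) is the main such hydroxylase and is itself a HIF target. Slc2a1 (GLUT1) carries glucose across the plasma membrane. Ndrg1 is a cytoplasmic stress-response protein, and Bnip3 is a protein of the outer mitochondrial membrane that promotes removal of mitochondria; both are well-known HIF targets. Aldolase A (Aldoa), phosphoglycerate kinase (Pgk1) and lactate dehydrogenase A (Ldha) are enzymes of glycolysis and lactate formation, and their genes are HIF targets in many tissues. Growth-factor signalling is also known to raise Slc2a1.

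Promoters of Slc2a1, Bnip3 and Egln1 are shown because with tonic 100 nM GnRH Slc2a1 rose while the other two fell, and each holds the HIF core ACGTG, read on either strand and written in capitals. They are windows of 300 bases around the gene start, mostly upstream of it, 5′ to 3′ on the gene's strand, from RefSeq on GRCm38.p6. Slc2a1 lies at chr4:119108495-119108794 on the plus strand, Bnip3 at chr7:138909457-138909756 on the minus strand and Egln1 at chr8:124949205-124949504 on the minus strand.
Slc2a1: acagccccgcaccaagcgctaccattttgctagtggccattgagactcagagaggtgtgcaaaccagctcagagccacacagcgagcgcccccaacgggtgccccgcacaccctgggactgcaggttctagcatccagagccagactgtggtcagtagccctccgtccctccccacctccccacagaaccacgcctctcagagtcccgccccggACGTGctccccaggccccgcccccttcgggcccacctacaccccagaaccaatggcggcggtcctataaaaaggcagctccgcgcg
Bnip3: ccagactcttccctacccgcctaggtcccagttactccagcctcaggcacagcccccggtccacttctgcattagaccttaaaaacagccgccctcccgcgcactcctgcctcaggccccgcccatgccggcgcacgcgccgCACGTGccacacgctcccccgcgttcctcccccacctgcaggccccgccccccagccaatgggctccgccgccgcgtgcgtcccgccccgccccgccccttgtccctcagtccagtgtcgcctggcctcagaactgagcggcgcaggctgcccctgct
Egln1: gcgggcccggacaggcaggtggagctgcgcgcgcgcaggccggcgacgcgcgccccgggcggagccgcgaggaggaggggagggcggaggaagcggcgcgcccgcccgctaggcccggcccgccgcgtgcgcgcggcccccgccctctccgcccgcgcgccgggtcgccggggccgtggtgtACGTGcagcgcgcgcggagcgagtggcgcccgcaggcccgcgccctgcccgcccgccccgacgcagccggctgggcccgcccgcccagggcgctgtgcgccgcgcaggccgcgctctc
In Bnip3 the 2 matches overlap, since CACGTG reads the same on both strands. Pgk1 has 2 core matches, Ldha 5 at its first annotated start and 0 at its second, and Aldoa 0, 1 and 1 at its 3 starts. Ndrg1 had no promoter entry in the sources used and was not searched for any of these motifs. Among the other genes, a match to the cyclic AMP response element TGACGTCA was found at the first Ldha start only. A match to the AP-1 site TGANTCA was found at 1 Aldoa start only. Of 32851 promoters of this length, 19.6% hold ACGTG, 1.79% TGACGTCA and 7.81% TGANTCA on either strand. These are matches of letters and show no binding.

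At 100 nM, over the 5 patterns together, Slc2a1 and Ndrg1 rose against unstimulated cells, Egln1 fell, and Bnip3, Aldoa, Pgk1 and Ldha did not pass the threshold (adjusted p below 0.05, limma with Benjamini-Hochberg adjustment over all 8491 probe sets). The 4 probe sets called were Slc2a1, both of Ndrg1 and Egln1, 3 higher and 1 lower of 9, where 14.2% of all probe sets were called. At 10 nM only the Slc2a1 probe set passed, 1 of 9, where 1.91% of all were called. Log2 changes are on the scale of log2(signal + 166.8), which understates the change of dim probe sets.

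**Figure D1:**
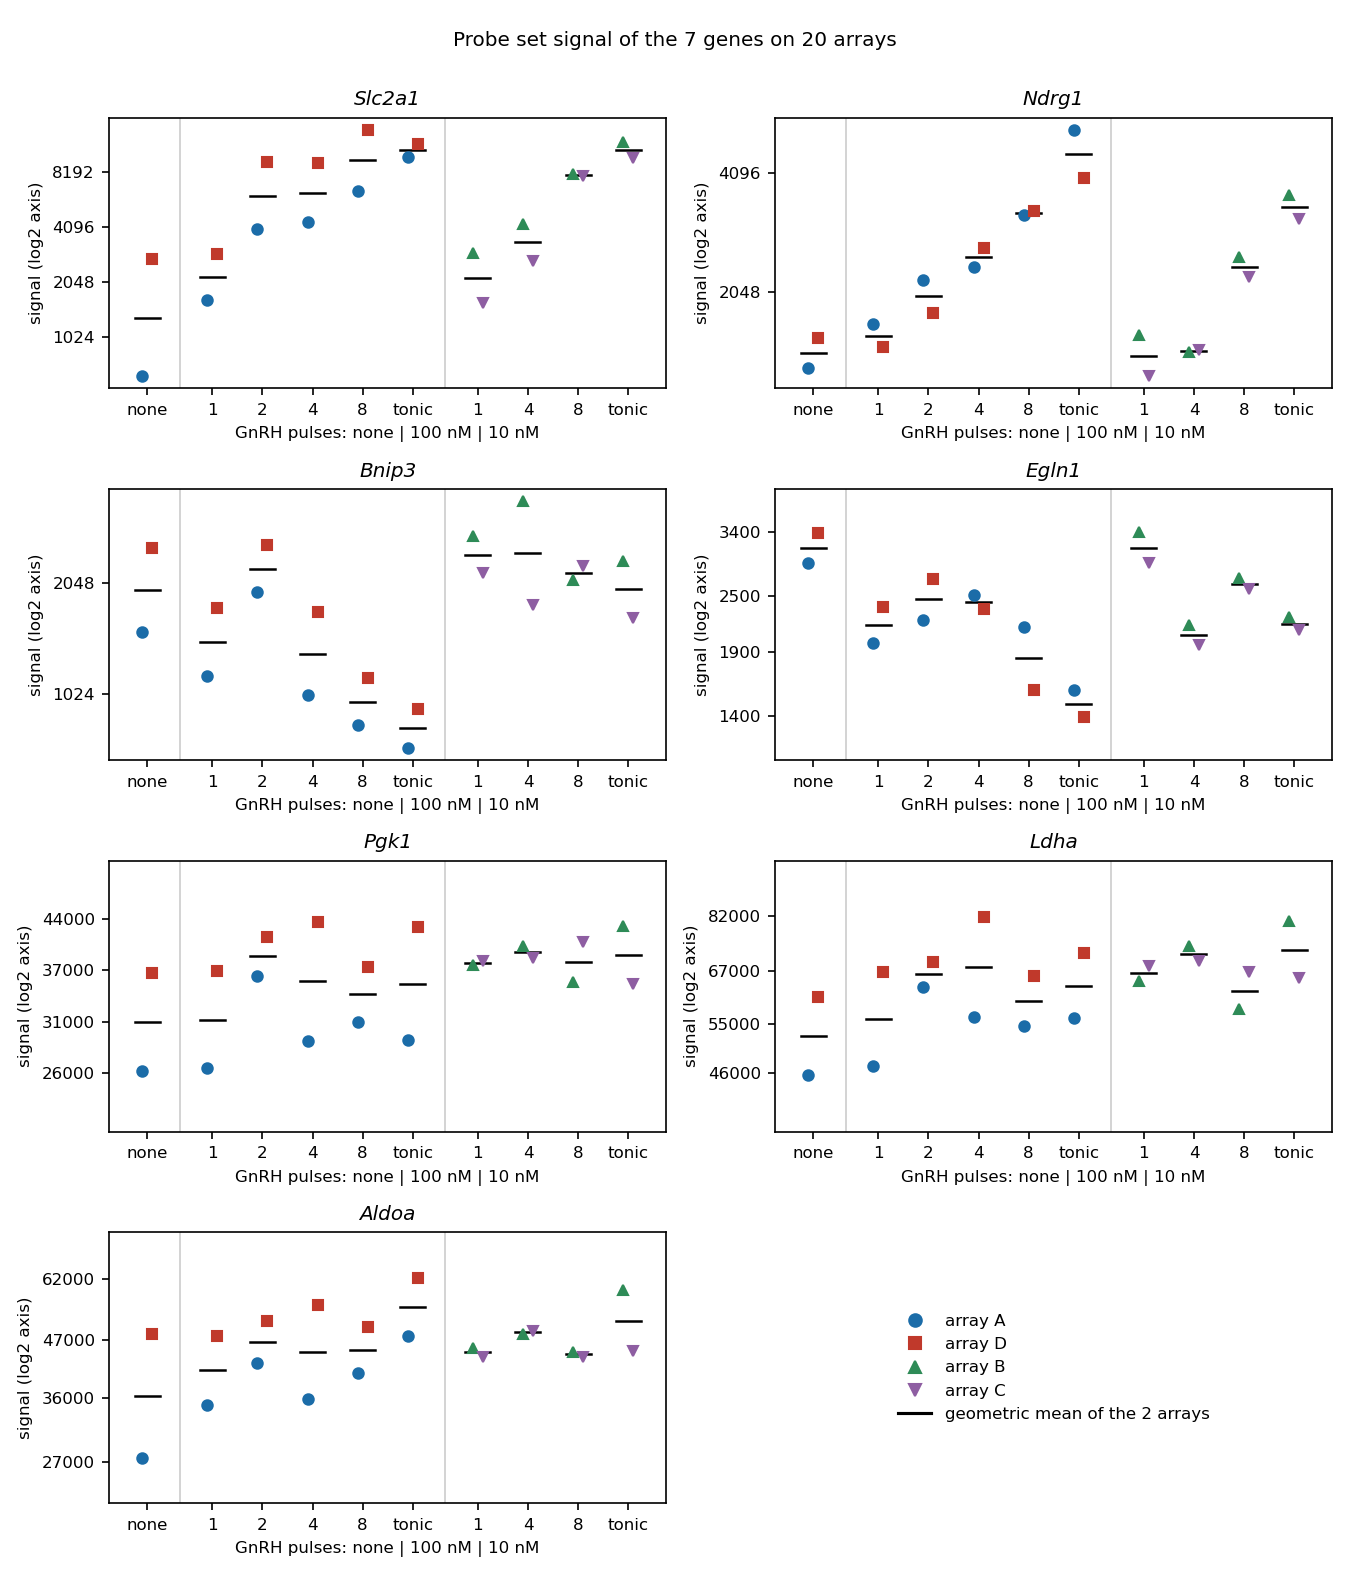
Signal of each gene (y axis, log2 scale, representative probe set) on every array, by GnRH pattern and dose on the x axis; symbols give the array's letter and black lines the geometric mean of the 2 arrays of a group. Slc2a1 runs from 621 in unstimulated array A to 13990 in 8 pulses 100 nM array D, while Pgk1 stays between 26214 and 43596.

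Slc2a1 gave the widest range of the 7 genes. Its signal was 621 (array A) and 2725 (D) in unstimulated cells. After 100 nM GnRH it was 1628 and 2907 with 1 pulse, 3989 and 9303 with 2 pulses, 4346 and 9166 with 4 pulses, 6442 and 13990 with 8 pulses, and 9901 and 11757 with tonic GnRH. From 2 pulses upward both arrays of a group stood above both unstimulated arrays, whereas the range for 1 pulse overlapped that of unstimulated cells. The unstimulated arrays themselves differed 4.39-fold, more than the 2 arrays of any GnRH group.

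The rise of Slc2a1 over all 100 nM patterns was 4.19-fold (log2 change 2.07 ± 0.40 SE, limma adjusted p = 0.00218). It rose with 4 pulses (2.10 ± 0.52, adjusted p = 0.0113), 8 pulses (2.68 ± 0.52, adjusted p = 0.00192) and tonic GnRH (2.86 ± 0.52, adjusted p = 0.000694). The value for 2 pulses, 2.06 ± 0.52, did not pass (adjusted p = 0.0890), nor did that for 1 pulse, 0.64 ± 0.52 (adjusted p = 0.808). Read within a letter, tonic 100 nM signal was 15.9 times the unstimulated signal on the A arrays and 4.31 times on the D arrays, so the direction was shared and the size was not.

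Leaving out single arrays moved the Slc2a1 change over all 100 nM patterns between 1.13 and 3.01. The lowest value came without unstimulated array A, where the 4-pulse change was 1.17 and neither passed. That fit sets A and D arrays against unstimulated array D alone, and Slc2a1 was higher in D in all 6 groups. With all arrays and the letter as a fixed replicate block, the change over all patterns was 2.07 ± 0.20 (limma adjusted p = 3.28e-06). In that fit 22% of all probe sets were called. Letters A and D did not meet the rule for pairing (14 of 15 correlations above 0.1, described below), so the blocked value is an alternative only. Without 4 pulses array D the 4-pulse change was 1.58 (adjusted p = 0.179), and without unstimulated array D the 2-pulse change was 2.99 (adjusted p = 0.0220).

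At 10 nM the Slc2a1 signal was 2965 (array B) and 1575 (C) with 1 pulse, 4275 and 2663 with 4 pulses, 7978 and 7808 with 8 pulses, and 11918 and 9759 with tonic GnRH. The 8-pulse and tonic arrays stood clear of unstimulated cells, and the 1-pulse and 4-pulse ranges overlapped them. Its rise over all 10 nM patterns was 3.44-fold (1.78 ± 0.41, adjusted p = 0.0321); it rose with 8 pulses (2.42 ± 0.52, adjusted p = 0.0177) and with tonic GnRH (2.86 ± 0.52, adjusted p = 0.00236). Values of 1.23 ± 0.52 with 4 pulses (adjusted p = 0.332) and 0.63 ± 0.52 with 1 pulse (adjusted p = 0.759) did not pass.

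These 10 nM arrays carry other letters than the unstimulated ones, so GnRH and letter cannot be told apart there. Without unstimulated array A the Slc2a1 changes were 0.85 over all 10 nM patterns (adjusted p = 0.486), 1.48 with 8 pulses (adjusted p = 0.235) and 1.92 with tonic GnRH (adjusted p = 0.0538). The call over all patterns was also lost without 1 pulse array B (adjusted p = 0.0632) or tonic array B (adjusted p = 0.0556), and that of 8 pulses without its array B (adjusted p = 0.119) or C (adjusted p = 0.101). With no filter on low signal the 10 nM changes of Slc2a1 had adjusted p = 0.0674 over all patterns and 0.0509 with 8 pulses.

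Egln1, the oxygen-sensing hydroxylase, was highest in cells without GnRH and after a single 10 nM pulse. Its signal was 2921 (A) and 3381 (D) in unstimulated cells, 1987 and 2366 with 1 pulse of 100 nM, 2225 and 2706 with 2, 2507 and 2347 with 4, 2149 and 1584 with 8, and 1584 and 1390 with tonic 100 nM GnRH. All 10 arrays at 100 nM lay below both unstimulated arrays, and the tonic arrays gave 2 of the 3 lowest signals.

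Egln1 fell over all 100 nM patterns (-0.58 ± 0.14, adjusted p = 0.00801), with 8 pulses (-0.72 ± 0.18, adjusted p = 0.0108) and with tonic GnRH (-1.003 ± 0.18, adjusted p = 0.000570), the last a 2.00-fold fall. The values for 1, 2 and 4 pulses were -0.50, -0.34 and -0.35 ± 0.18 and did not pass. Without unstimulated array D the change over all patterns was -0.48 (adjusted p = 0.161) and with 8 pulses -0.62 (adjusted p = 0.103); without 8 pulses array D the latter was -0.52 (adjusted p = 0.107). In a fit of the compared groups alone the 8-pulse change of Egln1 had adjusted p = 0.111.

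At 10 nM the Egln1 signal was 3396 (B) and 2923 (C) with 1 pulse, 2165 and 1967 with 4, 2717 and 2576 with 8, and 2250 and 2120 with tonic GnRH. Every group but that of 1 pulse lay below the unstimulated arrays, yet none passed: the change was -0.57 ± 0.18 with 4 pulses (adjusted p = 0.246), -0.23 ± 0.18 with 8 (adjusted p = 0.593) and -0.49 ± 0.18 with tonic GnRH (adjusted p = 0.103).

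Ndrg1 rose with pulse number at 100 nM and was measured by 2 probe sets. On the brighter one its signal was 1319 (A) and 1566 (D) in unstimulated cells, 1696 and 1483 with 1 pulse of 100 nM, 2195 and 1817 with 2, 2378 and 2645 with 4, 3209 and 3277 with 8, and 5277 and 3994 with tonic GnRH. Only the 1-pulse range overlapped the unstimulated one, and each later group stood above the one before it. The second probe set, which may share probes with other transcripts, read 956 and 1031 in unstimulated cells and 4689 and 3005 with tonic 100 nM GnRH.

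The brighter Ndrg1 probe set rose over all 100 nM patterns (0.79 ± 0.14, adjusted p = 0.00112), with 4 pulses (0.74 ± 0.18, adjusted p = 0.0112), 8 pulses (1.09 ± 0.18, adjusted p = 0.000573) and tonic GnRH (1.57 ± 0.18, adjusted p = 8.82e-06). The tonic change is a 2.97-fold rise, and the second Ndrg1 probe set gave 3.38-fold (1.76 ± 0.23, adjusted p = 2.74e-05). With 1 and 2 pulses the brighter probe set changed by 0.13 ± 0.18 and 0.43 ± 0.18, which did not pass. The 4-pulse call was lost without unstimulated array A (0.63, adjusted p = 0.0871) and without 4 pulses array D (0.67, adjusted p = 0.124), and in a fit of the compared groups alone (adjusted p = 0.0505).

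At 10 nM the signal of the brighter Ndrg1 probe set was 1593 (B) and 1255 (C) with 1 pulse and 1443 and 1458 with 4. It was 2508 and 2234 with 8 pulses, and 3607 and 3130 with tonic GnRH. On it the 1-pulse group lay across the unstimulated range, the 4-pulse group lay within it and the others lay above it. The second probe set read 867 (B) and 913 (C) with 4 pulses, below both unstimulated arrays (956 and 1031). The brighter probe set rose with tonic 10 nM GnRH (1.14 ± 0.18, limma adjusted p = 0.000763). Its values were 0.66 ± 0.18 with 8 pulses (adjusted p = 0.0664) and 0.45 ± 0.14 over all patterns (adjusted p = 0.106). The second gave 1.11 ± 0.23 with tonic GnRH (adjusted p = 0.00542) and 0.69 ± 0.23 with 8 pulses (adjusted p = 0.134). The 8-pulse change of the brighter probe set passed under quantile normalisation (0.73, limma adjusted p = 0.0299). It also passed with all arrays set to one median (0.76, adjusted p = 0.0273) and with a stricter filter (adjusted p = 0.0481).

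Bnip3, the mitochondrial HIF target, had its lowest group means with 8 pulses and tonic GnRH at 100 nM. Its signal was 1503 (A) and 2552 (D) in unstimulated cells, 1142 and 1748 with 1 pulse of 100 nM, 1932 and 2591 with 2, 1015 and 1704 with 4, 840 and 1127 with 8, and 729 and 930 with tonic GnRH. The 8-pulse and tonic arrays lay below both unstimulated arrays, and the other 3 groups overlapped them.

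Bnip3 fell with tonic 100 nM GnRH, 2.15-fold (-1.10 ± 0.31, adjusted p = 0.0162). The values for 8 pulses (-0.90 ± 0.31, adjusted p = 0.0607) and for all patterns (-0.56 ± 0.24, adjusted p = 0.135) did not pass. With the letter as a fixed replicate block both passed (limma adjusted p = 0.00345 and 0.0149), where 21.7% and 22% of all probe sets were called. Letters A and D did not meet the rule for pairing, so these blocked calls are alternatives only. The tonic call of Bnip3 was lost without tonic array A (-0.96, adjusted p = 0.111) and without unstimulated array D (-0.75, adjusted p = 0.185). The 8-pulse value passed without unstimulated array A (-1.25, adjusted p = 0.0396), without 4 pulses 10 nM array B (adjusted p = 0.0404) or C (adjusted p = 0.0402), and with a stricter filter (adjusted p = 0.0478).

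At 10 nM the Bnip3 signal was 2741 (B) and 2182 (C) with 1 pulse, 3409 and 1778 with 4, 2080 and 2282 with 8, and 2344 and 1648 with tonic GnRH. The 8-pulse and tonic arrays lay within the unstimulated range, and the 1-pulse and 4-pulse ranges reached above it. Its change over all 10 nM patterns was 0.19 ± 0.24 (adjusted p = 0.734), and no single pattern passed.

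The glycolytic enzymes were bright on every array and varied less than Slc2a1, Ndrg1, Bnip3 and Egln1 did. Aldoa signal, on the brighter of its 2 probe sets, was 27490 (A) and 48298 (D) in unstimulated cells and 47888 and 62270 with tonic 100 nM GnRH; over the 20 arrays it ran from 27490 to 62270 with a median of 46613. Both Aldoa probe sets carry the suffix for probes shared with like sequences, so the gene is uncertain. Pgk1 signal was 26214 and 36618 in unstimulated cells and 29105 and 42801 with tonic 100 nM GnRH, and Ldha signal was 45583 and 60767 against 56288 and 71487. On these probe sets the tonic and unstimulated ranges overlapped. The second Aldoa probe set read 11544 (A) and 15901 (D) in unstimulated cells and 16882 and 22164 with tonic 100 nM GnRH, ranges that did not overlap (0.51 ± 0.21, adjusted p = 0.101).

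None of the 4 enzyme probe sets passed the threshold in any of the 17 comparisons as first fitted, without a letter block or another scaling. Of these 68 tests, 8 had an unadjusted p under 0.05 (limma). Over all 8491 probe sets, 220 to 3054 had one, depending on the comparison. The change over all 100 nM patterns was 0.34 ± 0.19 for Aldoa (adjusted p = 0.264), 0.25 ± 0.16 for Ldha (adjusted p = 0.333) and 0.17 ± 0.17 for Pgk1 (adjusted p = 0.571). With tonic 100 nM GnRH it was 0.58 ± 0.25 for Aldoa (adjusted p = 0.105), 0.27 ± 0.21 for Ldha (adjusted p = 0.393) and 0.19 ± 0.23 for Pgk1 (adjusted p = 0.605). With the letter as a fixed replicate block, both Aldoa probe sets passed over all 100 nM patterns (limma adjusted p = 0.0427 and 0.0149). Both passed with tonic 100 nM GnRH (0.00679 and 0.00745), and the second did with 4 pulses 100 nM (0.0348). In that fit 22%, 28.6% and 23.1% of all probe sets were called, and letters A and D did not meet the rule for pairing. Without the block, quantile normalisation turned the sign for Ldha and Pgk1 over all 100 nM patterns and with tonic 100 nM GnRH. Without unstimulated array D the tonic change of Aldoa was 0.99 (adjusted p = 0.0184), and without unstimulated array A the Aldoa and Pgk1 changes over all 100 nM patterns were both -0.07.

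**Figure D2:**
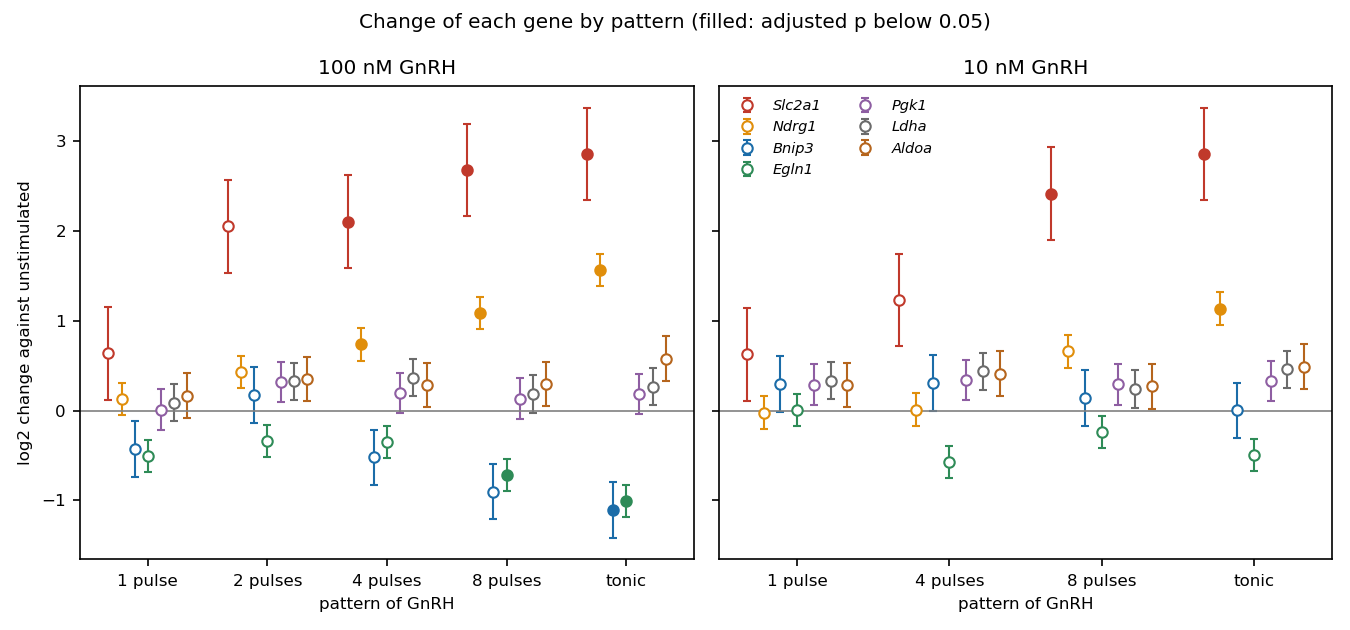
Log2 change of each gene's representative probe set against unstimulated cells (y axis, ± SE from the fit across all probe sets) by GnRH pattern (x axis), at 100 nM on the left and 10 nM on the right; filled points passed an adjusted p of 0.05. Slc2a1 reaches 2.86 with tonic GnRH at both doses, while Bnip3 is at -1.10 with tonic 100 nM and at 0.0027 with tonic 10 nM.

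Counted by pattern at 100 nM, 0 of the 9 probe sets passed with 1 pulse, where 0% of all probe sets were called (664 of 8491, 1 of the 9 among them, had an unadjusted p under 0.05 in limma). With 2 pulses it was also 0 of 9, where 0.624% were called (773 of 8491, 3 of the 9 among them, had an unadjusted p under 0.05). With 4 pulses 3 of 9 passed, all higher, against 14.9% of all. With 8 pulses 4 of 9 passed (3 higher, 1 lower) against 14.3%, and with tonic GnRH 5 of 9 (3 higher, 2 lower) against 20.4%. At 10 nM 0 of 9 passed with 1 pulse, where 0% of all were called (708 had an unadjusted p under 0.05, 0 of the 9 among them). With 4 pulses 0 of 9 passed against 0.0589% of all (1109, 3 of the 9 among them, had an unadjusted p under 0.05). It was 1 of 9 with 8 pulses against 2.23%, and 3 of 9, all higher, with tonic GnRH against 7.41%. All these comparisons share the same 2 unstimulated arrays.

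The slope over log2 pulse number, which is the change per doubling of the pulses, does not use the unstimulated arrays. At 100 nM (1, 2, 4 and 8 pulses) it was positive for Slc2a1 (0.62 ± 0.16, adjusted p = 0.0281) and for both Ndrg1 probe sets (0.32 ± 0.06, adjusted p = 0.00199, and 0.42 ± 0.07, adjusted p = 0.00136). These are 3 of 9 probe sets, where 6.89% of all were called. Bnip3 had a slope of -0.21 ± 0.10 (adjusted p = 0.225) and Egln1 one of -0.07 ± 0.06 (adjusted p = 0.567). The Slc2a1 slope lost its call without 1 pulse array A (0.50, adjusted p = 0.190), 1 pulse array D (adjusted p = 0.0518), 2 pulses array A (adjusted p = 0.0501), 4 pulses array D (adjusted p = 0.0524) or 8 pulses array D (0.45, adjusted p = 0.166), with no filter (adjusted p = 0.0659) and with no intensity trend (adjusted p = 0.0545).

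At 10 nM (1, 4 and 8 pulses) no slope of the 9 passed, where 2.1% of all were called. Before adjustment 1217 of 8491, 3 of the 9 among them, had p under 0.05 (limma). Slc2a1 had a slope of 0.55 ± 0.17 (adjusted p = 0.1003) and Ndrg1 one of 0.20 ± 0.06 (adjusted p = 0.0933). With the letter as a replicate block, which the pairing of B and C allows, the slopes of Slc2a1 (adjusted p = 0.000912) and of the brighter Ndrg1 probe set (adjusted p = 0.0396) passed, where 5.46% of all were called; that of the second Ndrg1 probe set had adjusted p = 0.0557. The Slc2a1 slope at 10 nM also passed without unstimulated array A (adjusted p = 0.0466) or D (adjusted p = 0.0467), which enter it only through the shared spread, and in a fit of the compared groups alone (adjusted p = 0.0173). The slopes at the 2 doses, both over 1, 4 and 8 pulses, differed by 0.13 ± 0.24 for Slc2a1 and 0.12 ± 0.08 for Ndrg1. None of the 9 differences passed, where 0.0118% of all were called (332 of 8491, 0 of the 9 among them, had an unadjusted p under 0.05), so a difference of the slopes between doses was not shown.

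Tonic GnRH against 8 pulses gave no call among the 9 probe sets at 100 nM, where 0.0118% of all were called (328 with an unadjusted p under 0.05), or at 10 nM, where 0% were (220 with an unadjusted p under 0.05). On the brighter Ndrg1 probe set the difference was 0.48 ± 0.18 at 100 nM (unadjusted p = 0.0158 in limma) and 0.48 ± 0.18 at 10 nM (0.0165). It was the only 1 of the 9 under 0.05 before adjustment at either dose. The second Ndrg1 probe set gave 0.29 ± 0.23 at 100 nM (unadjusted p = 0.222 in limma) and 0.42 ± 0.23 at 10 nM (0.0781). Slc2a1 differed by 0.18 ± 0.52 at 100 nM and by 0.44 ± 0.52 at 10 nM; without the 3 arrays of raised Gapdh ratio the first of these was -0.37.

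Between doses, over the 4 patterns given at both, Ndrg1 was higher and Bnip3 and Egln1 lower at 100 nM, and Slc2a1 did not pass. That is 4 of 9 probe sets (2 higher, 2 lower), where 23.6% of all were called. For Bnip3 both 100 nM arrays lay below both 10 nM arrays within each of the 4 patterns, and the difference was -0.92 ± 0.15 (1.90-fold, adjusted p = 0.000461). Ndrg1 was higher at 100 nM by 0.43 ± 0.09 (adjusted p = 0.00226) on the brighter probe set and by 0.64 ± 0.11 (adjusted p = 0.000640) on the second. Its arrays separated by dose with 4 pulses, 8 pulses and tonic GnRH and overlapped with 1 pulse.

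Egln1 was lower at 100 nM by 0.32 on the log2 scale (-0.32 ± 0.09, adjusted p = 0.0138), with the 4-pulse arrays going the opposite way. Slc2a1 differed between doses by 0.29 ± 0.26 (adjusted p = 0.468). Its tonic signals of 9901 and 11757 at 100 nM overlapped those of 11918 and 9759 at 10 nM. The differences of Pgk1 (-0.18 ± 0.11, adjusted p = 0.269), Ldha (-0.14 ± 0.10, adjusted p = 0.358) and Aldoa (-0.03 ± 0.12, adjusted p = 0.887) did not pass.

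Dose and letter cannot be told apart in these differences. The call of Ndrg1 was lost without the 3 arrays of raised Gapdh ratio (0.34, adjusted p = 0.0832), and that of Egln1 with the letter as a random replicate block (adjusted p = 0.0642). Under quantile normalisation Pgk1 (-0.24, adjusted p = 0.0494) and Ldha (-0.25, adjusted p = 0.0192) were called lower at 100 nM.

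Array letters separated 5 of the 7 genes. In all 6 groups with letters A and D, the D array gave the higher signal of Slc2a1 (1.19 to 4.39 times the A array), Bnip3 (1.27 to 1.70 times), Pgk1 (1.14 to 1.50 times), Ldha (1.10 to 1.45 times) and Aldoa (1.21 to 1.76 times on the brighter probe set). Ndrg1 and Egln1 were higher in D in 3 of the 6 groups. In the fit with the letter as a replicate block, D minus A was 1.04 ± 0.15 for Slc2a1 (adjusted p = 0.000945), 0.49 ± 0.11 for Bnip3 (adjusted p = 0.0146), 0.43 ± 0.08 for Pgk1 (adjusted p = 0.00494), 0.36 ± 0.08 for Ldha (adjusted p = 0.0126) and 0.47 ± 0.08 for Aldoa (adjusted p = 0.00415). These and the second Aldoa probe set are 6 of 9, where 7.66% of all probe sets were called. Ndrg1 (-0.07 ± 0.09) and Egln1 (0.0061 ± 0.096) did not pass. The rule for pairing by letter was not met for A and D.

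Between letters C and B none of the 9 passed, where 1.87% of all were called (1546 of 8491, 3 of the 9 among them, had an unadjusted p under 0.05 in limma). Slc2a1 was lower in C in 4 of 4 groups (-0.45 ± 0.18, adjusted p = 0.2003). What the letters stand for is not given in the labels, and its part in the results was not tested beyond the blocked fits. The enzymes that did not pass against unstimulated cells without the block thus differed between the A and D arrays of the same groups. On the representative probe sets D minus A was larger than the change over all 100 nM patterns, and on the second Aldoa probe set it was smaller (0.33 against 0.37).

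**Figure D3:**
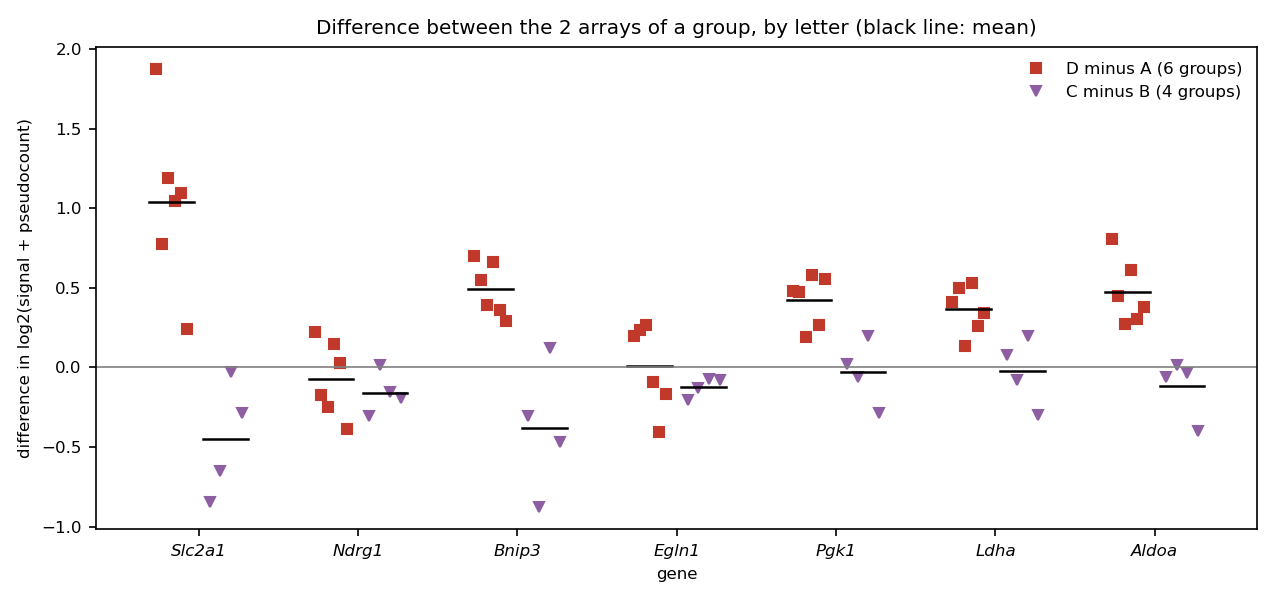
Difference in log2(signal + 166.8) between the 2 arrays of each group (y axis) for each gene's representative probe set (x axis); squares are D minus A in 6 groups, triangles C minus B in 4 groups, and black lines are means. For Slc2a1, Bnip3, Pgk1, Ldha and Aldoa all 6 squares lie above 0, while those of Ndrg1 and Egln1 lie on both sides.

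By the pattern of the 10 group means, the probe sets most like a gene were named by Pearson correlation, as a description over groups that share letters and arrays' scaling. For Slc2a1 these were Glipr2 (r = 0.981), the cell-surface proteoglycan gene Sdc1 (0.974) and the smooth-muscle actin gene Actg2 (0.970). Ndrg1 went with uridine phosphorylase Upp1 (0.992), the stress-response transcription factor gene Atf3 (0.986) and non-muscle myosin Myh9 (0.982). For Bnip3 they were the disulfide isomerase gene Pdia5 (0.969), the glycolytic phosphoglycerate mutase gene Pgam1 (0.966) and brain glycogen phosphorylase Pygb (0.943). Those for Egln1 were Esrp1 (0.926), Hand1 (0.909) and Syt2 (0.906). Over all 100 nM patterns these changed by -0.24 ± 0.26, -0.27 ± 0.29 and -0.97 ± 0.22. Hand1 was dim, with group means of 8.53 to 9.33 on the log2 scale. The probe sets of Hand1 and Actg2 carry the suffix for probes shared with like sequences. Top correlations were lower for Pgk1 (Nr2f6, 0.898), Ldha (Med11, 0.904) and Aldoa (Eef1a1, 0.905). Among the 7 genes themselves, Slc2a1 and Ndrg1 correlated at 0.900, Pgk1 and Ldha at 0.898, and Bnip3 and Egln1 at 0.730. Aldoa correlated with Ldha at 0.751, with Slc2a1 at 0.750 and with Egln1 at -0.701. Ndrg1 correlated with Egln1 at -0.724 and with Bnip3 at -0.712.

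Of other genes of glucose entry, glycolysis and pyruvate use, 20 were tested. In this list and the next, genes counted as risen, fallen, higher or lower are those that passed the threshold. Over all 100 nM patterns 0 rose and 2 fell: Ldhb, the other lactate dehydrogenase subunit (-0.83 ± 0.18, adjusted p = 0.00462), and Dlat, a subunit of pyruvate dehydrogenase (-0.44 ± 0.13, adjusted p = 0.0366). A second Dlat probe set did not pass, over all 100 nM patterns (-0.31 ± 0.23, limma adjusted p = 0.404) or with tonic 100 nM GnRH (-0.44 ± 0.30, adjusted p = 0.317). The median of the 20 was -0.11, against -0.05 over all probe sets. With tonic 100 nM GnRH 1 rose, hexokinase Hk1 (0.60 ± 0.19, adjusted p = 0.0344), and 3 fell, Ldhb (-1.23), Dlat (-0.70) and the pyruvate dehydrogenase kinase gene Pdk1 (-0.99 ± 0.34, adjusted p = 0.0482). The called share was 2 of 20 over all patterns and 4 of 20 with tonic GnRH, where 14.2% and 20.4% of all probe sets were called. Under quantile normalisation and with all arrays set to one median, 0 rose and 1 fell over all patterns. With tonic GnRH 0 rose under either scaling, so the call of Hk1 was lost, and 3 and 2 fell.

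Between doses 0 of these 20 genes were higher and 4 lower at 100 nM: the kinase gene Pdk3 (-0.51 ± 0.10, adjusted p = 0.00149), Pgam1 (-0.44 ± 0.09, adjusted p = 0.00160), liver phosphofructokinase Pfkl (-0.64 ± 0.14, adjusted p = 0.00257) and Pdk1 (-0.61 ± 0.17, adjusted p = 0.0148). These are 4 of 20, where 23.6% of all probe sets were called. Of the 20, 17 had a difference below 0, with a median of -0.21 against 0.0054 over all probe sets. With quantile normalisation 6 were lower, and 4 were with all arrays set to one median.

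Among 28 other tested genes of the HIF pathway and its targets, 0 rose and 3 fell over all 100 nM patterns: the histone demethylase gene Kdm3a (-0.52 ± 0.12, adjusted p = 0.00685), glycogen synthase Gys1 (-0.55 ± 0.16, adjusted p = 0.0244) and the growth-factor binding protein gene Igfbp1 (-0.77 ± 0.22, adjusted p = 0.0246). That is 10.7% of the list, against 14.2% of all probe sets, and the median was 0.07 against -0.05. The Igfbp1 probe set, like those of Aldoa, carries the suffix for probes shared with like sequences, so its gene is uncertain. With tonic 100 nM GnRH 2 rose and 4 fell, among them Cited2, an inhibitor of HIF that is itself a HIF target (0.72 ± 0.16, adjusted p = 0.00314), and Kdm3a (-0.78 ± 0.15, adjusted p = 0.00141); these 6 are 21.4% of the list, against 20.4% of all. Under either other scaling 2 rose and 3 fell.

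In sign alone, 15 of the 28 slopes over pulse number at 100 nM were above 0. Of the 28, 3 passed the threshold as positive and 1 as negative, or 14.3% of the list against 6.89% of all probe sets. Rising were the vascular growth factor gene Vegfa (0.42 ± 0.09, adjusted p = 0.00835), Cited2 (0.20 ± 0.05, adjusted p = 0.0176) and the adrenomedullin gene Adm (0.35 ± 0.10, adjusted p = 0.0459), and falling was Gys1 (-0.27 ± 0.06, adjusted p = 0.0161). Between doses 1 was higher at 100 nM, Cited2 (0.46 ± 0.08, adjusted p = 0.000518), and 4 were lower, among them Gys1 (-0.68 ± 0.10, adjusted p = 0.000200). These 5 are 17.9% of the list, against 23.6% of all. With all arrays set to one median 6 were lower, and with quantile normalisation 5.

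**Figure D4:**
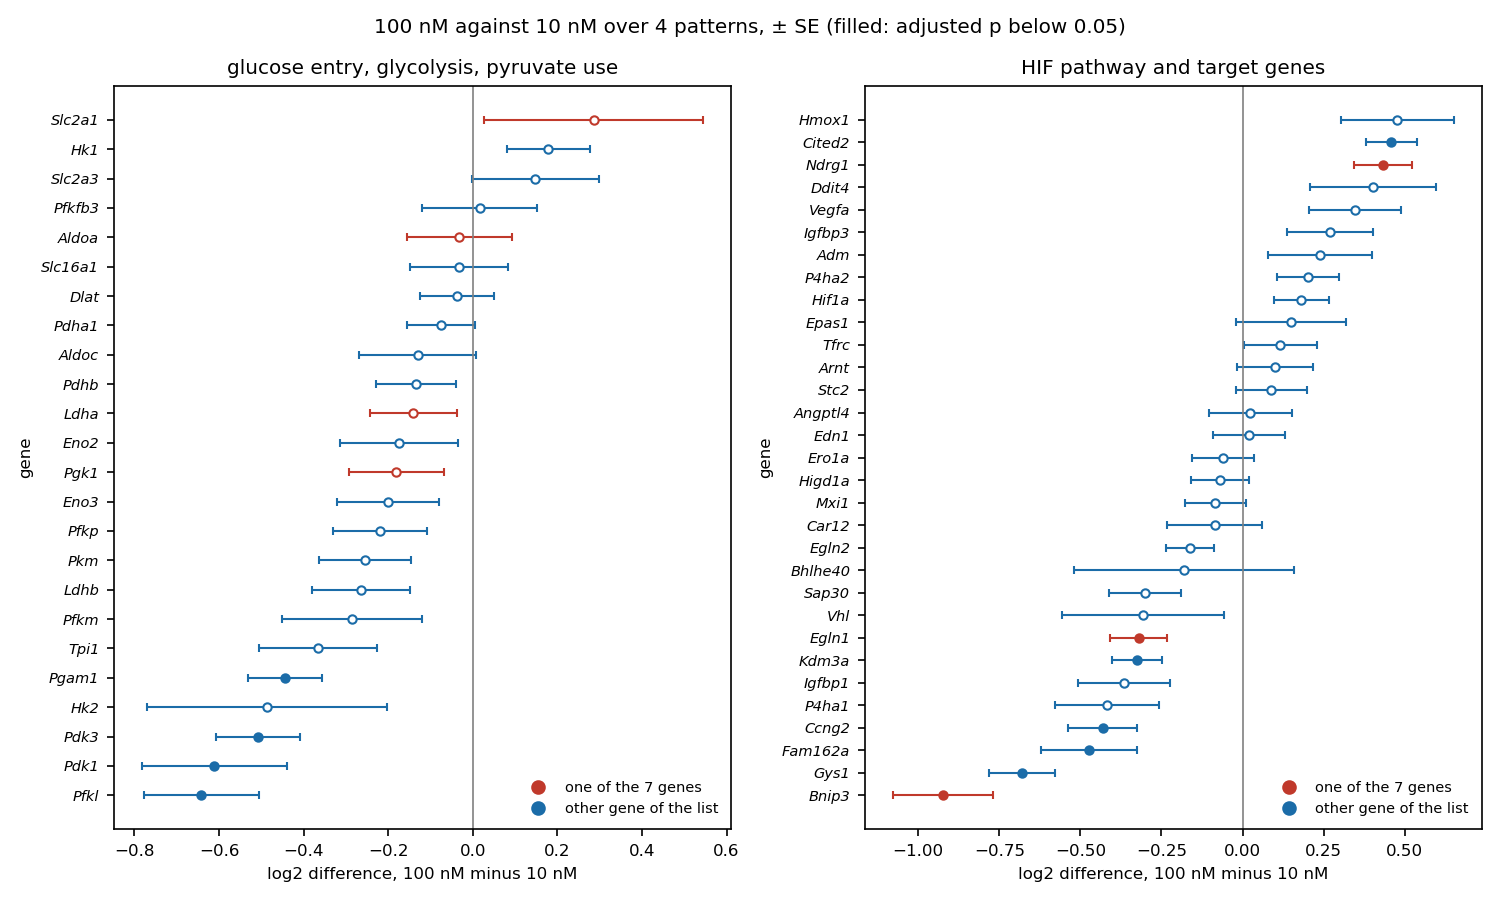
Difference between 100 nM and 10 nM GnRH over the 4 patterns given at both (x axis, log2 scale, ± SE) for each tested gene of the 2 lists (y axis, ordered by value); red marks the 7 genes, and filled points passed an adjusted p of 0.05. In the glycolysis list no filled point lies above 0, and in the HIF list filled points lie on both sides, from Bnip3 at -0.92 to Cited2 at 0.46.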

How the data were processed

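Total RNA was labelled with biotin and hybridised to 20 Affymetrix arrays, 2 for each of 10 groups taken from the sample titles. The deposited values are linear signal intensities from the authors' MAS5 run, per the submitters' processing notes; the sources used here do not give its version, chip file or scaling target. The common 2% trimmed mean shows that arrays had been scaled, and this was kept. All 20 columns were mapped to samples. The number of arrays limits the precision.

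Signals were transformed as log2(signal + 166.8), where the constant is the 25th percentile of the deposited table. The table holds 12488 probe sets, 66 of them controls that were not used, and 8491 with a signal above 427 (the 40th percentile) on at least 2 arrays were tested. A model of 10 group means was fitted to the 20 arrays with limma 3.58.1 (R 4.3.3; 10 residual and 8.20 prior degrees of freedom, intensity trend), with two-sided p-values adjusted by Benjamini-Hochberg within each comparison, at 0.05. The script was tested on simulated data. The platform annotation ties 10833 probe sets to 1 gene; the probe set with the highest mean of log2 signals represents its gene. Genes of like pattern are the 3 of highest correlation, and pathway genes the up to 4 of smallest p past the threshold in a comparison described. The 7 genes, the lists and the tests were chosen with earlier results of these data known, and the test between letters was added after the values were seen.

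Whether letters pair the arrays was checked from the correlation of deviations from the group means, since the titles give letters without saying what they mark. Between B and C the 6 pairs ran from 0.130 to 0.345, each above 0.1, so blocked values stand beside the 10 nM slopes. Between A and D 14 of 15 exceeded it (0.0797 to 0.320), which did not meet the rule. The alternatives tried were equal array medians, quantile normalisation, a floor at 55.2 or a larger constant of 427, no filter, a filter at 1362, no intensity trend, the letter as a random or fixed block, a fit of the compared groups alone, the groups that the characteristics give, the 12 agreeing samples, the other probe set, and leaving out each array or the 3 arrays of raised Gapdh ratio.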

Additional observations from a re-analysis of the deposited data

How the results depend on the processing

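Groups of 2 arrays, 2 contradicting sets of labels and the brightness of single unstimulated arrays limit these results. With groups from the characteristics the number of the 9 probe sets called was 0 in every comparison. Over the 12 agreeing samples, with 1 array in unstimulated cells and in each 100 nM group, it was 1 for all 100 nM patterns, 1 for 4 pulses, 3 for tonic 100 nM and 1 for the 100 nM slope. With the letter as a fixed replicate block the number called was 7 for all 100 nM patterns, 1 for 2 pulses 100 nM and 2 for the 10 nM slope. In that fit 22%, 1.6% and 5.46% of all probe sets were called, against 14.2%, 0.624% and 2.1% without the block. As a random replicate block the letter gave 1 and 2 for the last pair. Under the fixed and the random block Bnip3 passed with 8 pulses 100 nM (limma adjusted p = 0.00345 and 0.0137) and over all 100 nM patterns (0.0149 and 0.0457). Aldoa passed with tonic 100 nM (0.00679 and 0.0293). With the fixed block alone the 100 nM slope of Bnip3 (-0.21, adjusted p = 0.0324) and the change of Aldoa over all 100 nM patterns (0.34, adjusted p = 0.0427) passed as well. Letters A and D did not meet the rule for pairing, so the blocked 100 nM values are alternatives only. With only the compared groups the count was 1 for 4 pulses 100 nM, 0 for 8 pulses 10 nM and 1 for the 10 nM slope. With no filter it was 0 for all 10 nM patterns and for 8 pulses 10 nM, and with no intensity trend 0 for all 10 nM patterns. For 8 pulses 10 nM it was 2 with quantile normalisation, with equal medians and with the stricter filter. No value for 4 pulses 100 nM could be had without the 3 arrays of raised Gapdh ratio. Apart from the fixed block, the share of all probe sets called in these fits and in the leave-out fits below is not given here. Their counts, the 0 with groups from the characteristics among them, thus cannot be read as particular to these 9 probe sets. The causes were not tested.

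Leaving out each array in turn gave 3 to 4 calls for all 100 nM patterns, 0 to 1 for all 10 nM patterns, 0 to 1 for 2 pulses 100 nM, 0 to 3 for 4 pulses 100 nM, 3 to 5 for 8 pulses 100 nM, 4 to 5 for tonic 100 nM, 0 to 1 for 8 pulses 10 nM, 2 to 3 for tonic 10 nM, 2 to 3 for the 100 nM slope and 0 to 1 for the 10 nM slope; a lone array was assumed to vary like the other groups.

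Signs turned only for values that were not called, except for the Ndrg1 slope at 100 nM. With quantile normalisation the log2 change over all 100 nM patterns was -0.10 for Pgk1 and -0.12 for Ldha, that of tonic 100 nM -0.19 for Pgk1 and -0.25 for Ldha, and that of 1 pulse 10 nM 0.015 for Ndrg1 (0.0066 with equal medians). With groups from the characteristics Ldha was at -0.0014 over all 100 nM patterns and -0.0057 with tonic 100 nM, Ndrg1 at 0.24 with 1 pulse and -0.34 with 4 pulses of 10 nM, and Egln1 at 0.014 with 8 pulses of 10 nM. In that fit the 100 nM slope was -0.052 for Ndrg1, 0.095 for Bnip3 and 0.16 for Egln1, the 10 nM slope -0.020 for Ndrg1 and 0.023 for Bnip3, the difference of slopes -0.042 for Ndrg1, and Slc2a1 was at -0.088 for tonic against 8 pulses at 100 nM and -0.23 between doses. Over the 12 agreeing samples Ndrg1 was at 0.24 with 1 pulse 10 nM, Egln1 at 0.048 for the 100 nM slope and Slc2a1 at -0.25 between doses. The other Ndrg1 probe set gave -0.13 with 4 pulses 10 nM. Without the 3 arrays of raised Gapdh ratio Slc2a1 was at -0.37 for tonic against 8 pulses at 100 nM and Aldoa at 0.051 between doses.

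Leaving out single arrays turned the sign of some uncalled values. Over all 100 nM patterns Pgk1 ran from -0.069 to 0.41 and Aldoa from -0.068 to 0.74; over all 10 nM patterns Bnip3 ran from -0.17 to 0.54 and Aldoa from -0.039 to 0.77. Slc2a1 ran from -0.30 to 1.58 with 1 pulse 100 nM, from -0.31 to 1.57 with 1 pulse 10 nM, from -0.022 to 0.29 for the difference of slopes and from -0.37 to 0.73 for tonic against 8 pulses at 100 nM. Bnip3 ran from -0.18 to 0.53 with 2 pulses 100 nM, and at 10 nM from -0.057 to 0.65 with 1 pulse, -0.13 to 0.75 with 4, -0.21 to 0.49 with 8, -0.35 to 0.35 with tonic GnRH and -0.10 to 0.011 for the slope. Ndrg1 ran from -0.17 to 0.13 with 1 pulse and -0.10 to 0.12 with 4 pulses of 10 nM, Egln1 from -0.10 to 0.11 with 1 pulse 10 nM, Pgk1 from -0.090 to 0.46 with tonic 100 nM and Aldoa from -0.11 to 0.045 between doses.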
